A study of Mus musculus with 9 samples.

Results

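The Toll-like receptors and their shared adaptors were followed across 9 RNA libraries prepared from cells sorted from the mouse retina. Members were the genes of the deposited expression table named Tlr1, Tlr2, Tlr4, Tlr6, Tlr7, Tlr9, Tlr13, Cd14, Ly96 or Myd88. Of these 10 genes, 4 were listed among the 15228 genes of the table, namely Tlr2, Tlr13, Cd14 and Myd88. Tlr1, Tlr4, Tlr6, Tlr7, Tlr9 and Ly96 were not listed and are not analysed here. All mice were WT, of the C57BL/6J strain and 6 to 8 weeks old at surgery, and both sexes were used. The Ctrl group (3 libraries) came from normal, uninjured retinas. The ONC group (3 libraries) had an optic nerve crush and an intravitreal injection of PBS as vehicle, and the TPEN group (3 libraries) had the same crush and an injection of the zinc chelator TPEN (100 µM, 3 µL per eye). Retinas were taken 3 d after the crush, so TPEN/ONC compares chelator with vehicle after the same crush. ONC/Ctrl sets crushed and injected eyes against normal ones, and crush and injection cannot be told apart in it. Cells were gated as CD90.2+ CD48neg CD15neg CD57neg and labelled primary retinal ganglion cells (RGCs). The sources used here do not tie each library to its own mice, so p-values measure the spread between libraries, which may be technical.

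Toll-like receptors bind conserved microbial products and some molecules released by damaged cells, and in the retina they are best known from microglia and macrophages. TLR2 acts at the cell surface and pairs with TLR1 or TLR6 to bind lipoproteins. TLR4 works with LY96 and the co-receptor CD14 to bind lipopolysaccharide, and CD14 also hands ligands to other receptors. TLR7, TLR9 and TLR13 sense nucleic acids in endosomes, TLR13 being a mouse receptor for bacterial ribosomal RNA. MYD88 couples most of these receptors, and the interleukin receptors of the same family, to IRAK kinases and from there to NF-kB, which drives cytokine genes and several inhibitors of the pathway.

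All 15228 listed genes exceeded 1 RPM (reads scaled by the total of the library) in at least 2 libraries of some pair of groups. Tlr2, Tlr13 and Cd14 exceeded 1 RPM in 3 of 3 ONC libraries and in 0 of 6 Ctrl and TPEN libraries. Their listing therefore rests on their ONC level, and a higher ONC level had to be present in them, so no count over members is read as evidence for a rise. For the same reason their ONC/Ctrl differences are given as sizes with no p. Selection on a high ONC level also favours a lower TPEN level, so their TPEN/ONC p-values are too small and only set the size against the spread. Myd88 exceeded 1 RPM in all 9 libraries. Total reads per library were 19946993 to 23109754. Levels are in RPKM (RPM divided by the exon length in kilobases), which allows comparison between genes as well as libraries. By mean RPKM over the 9 libraries, Myd88 ranked 9854, Cd14 13247, Tlr2 14606 and Tlr13 14957 of 15228, so all but Myd88 lay near the bottom of the table.

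The sequences just before the exon block that holds the RefSeq start of Tlr2, Tlr13 and Myd88 are shown. They were chosen because these genes were higher in ONC than in Ctrl, and because NF-kB, interferon-response and PU.1 elements are the motifs by which such genes are usually discussed. They come from the RefSeq promoter table (GRCm38.p6), in which 3 of the 4 listed members were matched, and each run ends at the base before the exon block of the deposited table that holds the RefSeq start. Capitals mark motif matches, and each run reads 5′ to 3′ on the gene's own strand, the minus strand for Tlr2 (chr3:83841768-83841858) and Myd88 (chr9:119340042-119340268) and the plus strand for Tlr13 (chrX:106143025-106143203).
Tlr2: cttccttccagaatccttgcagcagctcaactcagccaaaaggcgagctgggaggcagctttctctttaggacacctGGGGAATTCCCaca
Tlr13: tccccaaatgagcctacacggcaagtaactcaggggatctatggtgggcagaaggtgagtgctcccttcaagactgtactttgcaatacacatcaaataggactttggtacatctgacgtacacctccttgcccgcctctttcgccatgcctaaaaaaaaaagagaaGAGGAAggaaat
Myd88: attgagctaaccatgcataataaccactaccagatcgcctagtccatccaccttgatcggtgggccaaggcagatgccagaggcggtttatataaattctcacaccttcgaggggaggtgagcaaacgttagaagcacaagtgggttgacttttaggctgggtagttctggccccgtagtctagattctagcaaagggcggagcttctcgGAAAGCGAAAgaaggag
The motifs searched on both strands were GGGNNNNNCC (NF-kB), GAAANNGAAA (interferon-stimulated response element, ISRE), GAGGAA (PU.1, the factor of myeloid cells) and TGANTCA (AP-1). The Tlr2 run held 2 overlapping NF-kB matches, GGGGAATTCC and GGGAATTCCC, which end 4 and 3 bases before the exon. The Tlr13 run held 1 PU.1 match and the Myd88 run 1 ISRE match, GAAAGCGAAA. The Myd88 run lies inside the span listed for the gene (chr9:119335934-119341411). AP-1 had no match in these windows. Over all 32851 promoters of the table (250 bases before the start), 45.8% held the NF-kB letters, 2.98% those of the ISRE, 23.3% those of PU.1 and 6.75% those of AP-1. The runs shown are shorter, with 91 bases for Tlr2, 179 for Tlr13 and 227 for Myd88. A match is a description of the letters and not a site, and the NF-kB and PU.1 letters are common.

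Tlr2 (chr3:83836272-83841767, minus strand, 3 exon blocks, 3014 exon bases, GRCm38) was barely detected in uninjured cells and was higher in every crushed library. Its level was 0, 0.0144 and 0.0992 RPKM in Ctrl replicates 1, 2 and 3, where 0 reads allow up to 0.0444 RPKM (3 reads). It was 0.491, 0.390 and 0.506 RPKM in the ONC libraries and 0.282, 0.239 and 0.250 RPKM in the TPEN libraries. The 3 groups did not overlap, with every TPEN library between the highest Ctrl and the lowest ONC library. In reads this was 0, 1 and 6 in Ctrl, 34, 27 and 35 in ONC, and 17, 16 and 15 in TPEN, so 6 of the 7 Ctrl reads came from 1 library. The ratio of summed reads, scaled to the group totals, was 13.1 for ONC/Ctrl (exact 95% interval 6.10 to 33.3) and 0.554 for TPEN/ONC (0.384 to 0.792). Such intervals cover counting error only. In each library 64.1 to 70.4% of the values of 1 to 20 reads were even numbers, and if paired mates were counted separately the intervals would be wider.

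Tlr2 has a mean under 0.5 RPKM and was tested among all 15228 genes without a filter, where 6.19% were called higher in ONC/Ctrl, 1.85% lower in TPEN/ONC and 4.5% higher in TPEN/Ctrl (a call being an adjusted p under 0.05 with a fold change of at least 1.5). Its log2 fold change on the log2(RPKM + 0.1) scale, which understates the change of low genes, was 2.09 (SE 0.25) in ONC/Ctrl. TPEN/Ctrl was 1.44 (SE 0.25, limma adjusted p = 0.0039), so Tlr2 remained above the uninjured level in the TPEN group. TPEN/ONC was -0.65 (SE 0.25, 95% interval -1.20 to -0.10), which did not pass (limma adjusted p = 0.15). Without Ctrl replicate 3, which held most of the Ctrl reads, the TPEN/ONC difference was the same in size and passed (limma adjusted p = 0.042).

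Tlr13 (chrX:106143204-106160493, plus strand, 3 exon blocks, 4085 exon bases) was the lowest of the listed members. No read was counted in Ctrl replicates 1 and 2, which allows up to 0.0328 and 0.0318 RPKM, and Ctrl replicate 3 had 0.0732 RPKM. The ONC libraries had 0.288, 0.394 and 0.341 RPKM (27, 37 and 32 reads). The TPEN libraries had 0.220, 0 and 0.123 RPKM (18, 0 and 10 reads), the 0 allowing up to 0.0331 RPKM. All ONC libraries lay above all others. TPEN replicates 1 and 3 lay above the highest Ctrl library, and TPEN replicate 2 had no read. The ratio of summed reads was 15.2 for ONC/Ctrl (exact 95% interval 6.75 to 42.5) and 0.323 for TPEN/ONC (0.204 to 0.497).

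In the fit without a filter, the ONC/Ctrl difference of Tlr13 was 1.87 on the log2 scale (SE 0.39). TPEN/ONC was -1.19 (SE 0.39, 95% interval -2.07 to -0.31) and did not pass (limma adjusted p = 0.105). Without TPEN replicate 1, the highest of its group, the TPEN/ONC value was -1.56 and passed (limma adjusted p = 0.049). TPEN/Ctrl was 0.68 (SE 0.39, limma adjusted p = 0.307). It became 1.15 without TPEN replicate 2, the library with no read (limma adjusted p = 0.040), so whether TPEN/Ctrl passed depended on that library for this gene.

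Cd14 (chr18:36725074-36726736, minus strand, 2 exon blocks, 1572 exon bases) encodes the co-receptor that binds lipopolysaccharide and passes it to TLR4. On the log2(RPKM + 0.1) scale it had the largest difference of the listed members in each of the 3 comparisons. With limma's voom on whole reads the TPEN/ONC value of Tlr13 (-2.74) was larger than that of Cd14 (-1.72). In TPEN/Ctrl Tlr2 was above Cd14 with voom (3.36 against 3.26) and with quantile normalization (1.03 against 0.86). The Ctrl libraries had 0.0568, 0.0551 and 0 RPKM (2, 2 and 0 reads, the 0 allowing up to 0.0951 RPKM). The ONC libraries had 1.328, 1.329 and 1.329 RPKM, 48 reads in each. The TPEN libraries had 0.509, 0.458 and 0.255 RPKM (16, 16 and 8 reads). The 3 groups did not overlap, and TPEN lay between Ctrl and ONC. The 3 ONC libraries agreed more closely than counting error alone would give on average, so their SD of 0.000624 RPKM is no measure of precision.

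Cd14 passed the filter on a mean of at least 0.5 RPKM, above which 13566 genes were tested, through its ONC libraries alone. It went from a mean of 0.0373 ± 0.0323 to 1.33 ± 0.000624 RPKM (SD, n = 3), an ONC/Ctrl log2 fold change of 3.41 (SE 0.25). Among all genes tested, 4.58% were called higher in this comparison. The ratio of summed reads was 34.3, with an exact 95% interval of 13.1 to 127 that shows how little 4 Ctrl reads fix it. In TPEN it stood at 0.408 ± 0.134 RPKM, a TPEN/ONC log2 fold change of -1.53 (SE 0.25, limma adjusted p = 0.0067), where 1.21% of all genes were called lower. The ratio of summed reads was 0.308 (exact 95% interval 0.211 to 0.440). A test against a fold change of 1.5, in place of 0, gave an adjusted p of 0.432 for this difference by limma. In TPEN/Ctrl Cd14 was higher by 1.88 (SE 0.25, limma adjusted p = 0.00104), and 3.45% of all genes were called higher. After quantile normalization TPEN/Ctrl was 0.86 (limma adjusted p = 0.064).

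Myd88 (chr9:119335934-119341411, minus strand, 5 exon blocks, 2576 exon bases) was the one member above 1 RPM in uninjured cells, and its level in the TPEN libraries overlapped that in ONC. The Ctrl libraries had 1.23, 1.58 and 1.41 RPKM (71, 94 and 73 reads). The ONC libraries had 2.297, 2.79 and 2.72 RPKM (136, 165 and 161 reads), and the TPEN libraries had 2.49, 2.34 and 2.78 RPKM (128, 134 and 143 reads). All 6 libraries from crushed nerves lay above the 3 Ctrl libraries, and the ONC and TPEN ranges overlapped.

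Myd88 rose in ONC/Ctrl by 0.84 on the log2 scale (SE 0.12, limma adjusted p = 9.6e-04) and in TPEN/Ctrl by 0.81 (SE 0.12, limma adjusted p = 0.0018). TPEN/ONC was -0.034 (SE 0.12, limma adjusted p = 0.911) with a 95% interval of -0.31 to 0.24, so a fall beyond -0.31 on the log2 scale lay outside the interval. The ratio of summed reads was 1.85 for ONC/Ctrl (exact 95% interval 1.58 to 2.17) and 0.972 for TPEN/ONC (0.849 to 1.11). The rises were above a fold of 1.5 but did not exceed it in a test against 1.5 (limma adjusted p = 0.949 and 1.0). Exons of Myd88 share 290 bases (11.3% of its exon bases) with Acaa1a, a peroxisomal thiolase gene on the opposite strand, and whether strand was used in counting is not given in the sources used here. Acaa1a stood at 9.72 ± 0.693 RPKM in Ctrl, 9.78 ± 0.294 in ONC and 9.31 ± 0.315 in TPEN (SD, n = 3), and its ONC/Ctrl log2 fold change was 0.0098 (SE 0.060, limma adjusted p = 0.933). The Myd88 level is uncertain by those shared bases.

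**Figure D1:**
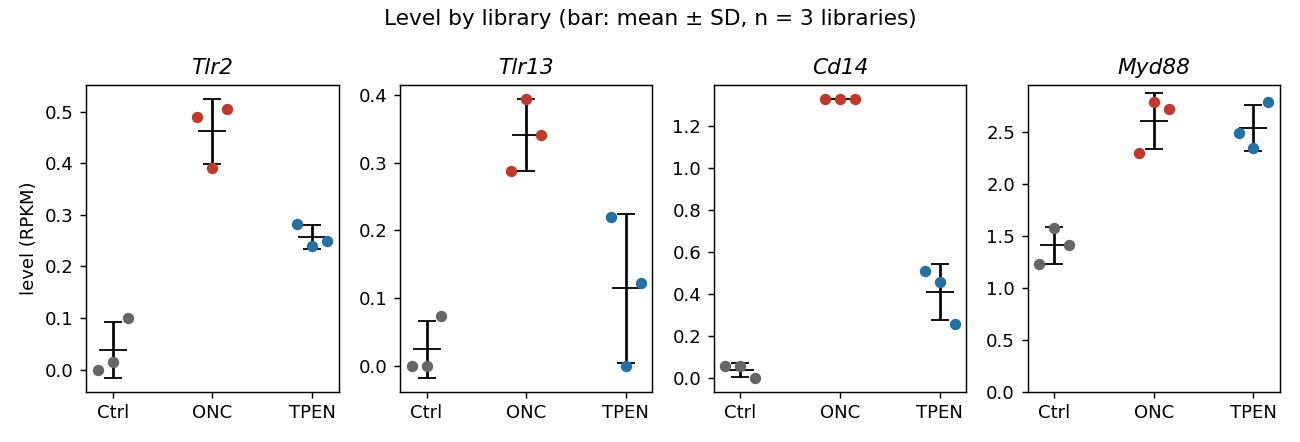
Level in RPKM (y axis, linear, a separate scale per gene) of the 4 listed members in the 3 Ctrl, 3 ONC and 3 TPEN libraries (points), with the mean and SD (bars, n = 3). Cd14 sits at 1.33 RPKM in all ONC libraries and at 0.255 to 0.509 in TPEN, while Myd88 overlaps between ONC (2.297 to 2.79) and TPEN (2.34 to 2.78).

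**Figure D2:**
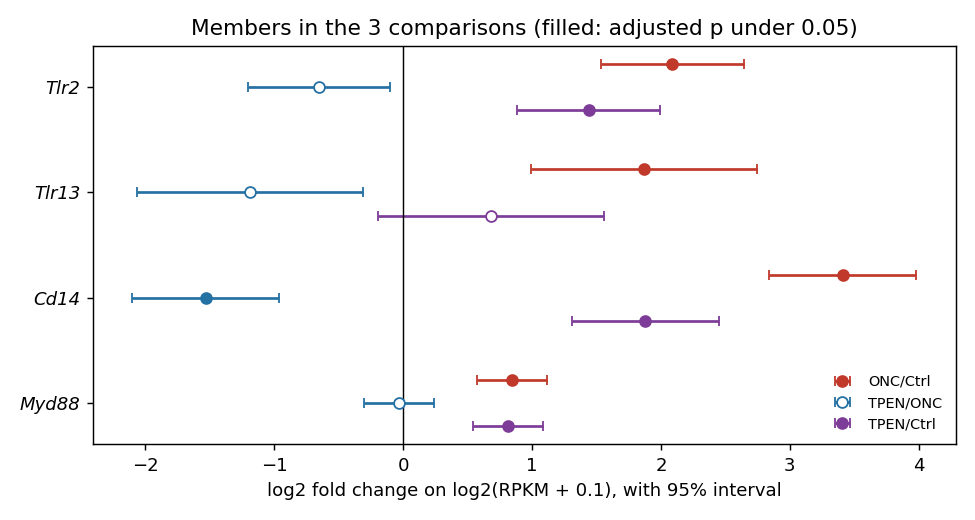
Log2 fold change on the log2(RPKM + 0.1) scale (x axis) with its 95% interval for each member and comparison, Cd14 and Myd88 from the filtered fit and Tlr2 and Tlr13 from the fit without a filter, with filled points passing an adjusted p of 0.05. Tlr2, Tlr13 and Cd14 are listed through their ONC level, so their ONC/Ctrl points had to lie above 0. In TPEN/ONC only Cd14, at -1.53, is filled, and Myd88, at -0.034, is centred near 0.

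The levels of Cd14 and Myd88 were also set against each other within each library, a measure chosen after the values were seen and given as a description. The log2 ratio of Cd14 to Myd88 was -3.48 ± 0.42 in Ctrl, -0.91 ± 0.15 in ONC and -2.41 ± 0.53 in TPEN (SD, n = 3, with 0.1 RPKM added to each level).

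Markers of microglia and macrophages moved with Tlr2, Tlr13 and Cd14. Of 19 such markers, 17 were listed (Tyrobp and Mrc1 were not), and their summed level was 10.3 to 10.6 RPKM in Ctrl, 79.9 to 82.3 in ONC and 40.3 to 42.6 in TPEN. All 14 tested markers rose in ONC/Ctrl and in TPEN/Ctrl, beside 11.7% and 8.36% of all genes. In TPEN/ONC 7 fell, beside 4.14% of all genes, and 6 of them by at least 1.5-fold, beside 1.21%. One of the 14, Tmem119, was tested only through its ONC level, and without it 13 of 13 rose and 6 fell. In bulk libraries fewer cells of a type and less RNA per cell cannot be told apart. None of the 8 neutrophil and 7 T and B cell markers was listed, and of 5 monocyte markers only F10 was, again through its ONC level, with 2.99 in ONC/Ctrl and -2.88 in TPEN/ONC. The astrocyte list (3 of 4 listed) summed to 5.54 to 6.21 RPKM in Ctrl, 27.2 to 28.3 in ONC and 17.3 to 20.05 in TPEN. Gfap made most of the ONC and TPEN sums, with means of 2.79, 22.2 and 14.4 RPKM. S100b had 1.09, 1.28 and 1.10 RPKM and Aldh1l1 2.04, 4.22 and 3.24 RPKM. Of the 3, 2 rose in ONC/Ctrl and 1 fell in TPEN/ONC, beside 11.7% and 4.14% of all genes. The part these cells had in the member levels was not tested.

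The labelled cell type was only partly borne out by the markers. Of 11 RGC markers, 9 were listed, and Rbpms, Pou4f1 and Slc17a6, which define RGCs in the retina, had means below 0.5 RPKM over the 9 libraries, while Pou4f2 and Pou4f3 were not listed. Other markers of the list, which other neurons can also express, were well above this, with group means of 198 to 264 RPKM for Nefl, 44.8 to 60.2 for Nefm, 22.5 to 31.1 for Nefh, 18.4 to 23.3 for Sncg, 4.74 to 7.12 for Thy1 and 1.64 to 2.09 for Isl1. The RGC list summed to 360 to 370 RPKM in Ctrl, 368 to 390 in ONC and 287 to 301 in TPEN. The rod list (6 of 6 listed) summed to 18349 to 19201 RPKM in Ctrl, 16075 to 16304 in ONC and 17291 to 17414 in TPEN. In ONC/Ctrl 5 of these 6 passed as lower and 1 as higher, beside 6.97% and 11.7% of all genes. In TPEN/ONC 2 passed as higher and 1 as lower, beside 3.24% and 4.14%. Cone markers summed to 102 to 107 RPKM in Ctrl, 88.5 to 96.3 in ONC and 156 to 158 in TPEN. In TPEN/ONC 5 of 5 passed as higher, beside 3.24% of all genes. Müller glia markers summed to 530 to 550, 555 to 568 and 436 to 448 RPKM. Of these 6 markers, 1 rose and 3 fell in ONC/Ctrl, beside 11.7% and 6.97% of all genes. In TPEN/ONC 3 fell and 1 rose, beside 4.14% and 3.24%. The higher ONC sum came from Apoe, with means of 172, 268 and 178 RPKM. Glul had 173, 116 and 103 RPKM and Rlbp1 125, 111 and 94.6 RPKM. Bipolar markers summed to 78.3 to 81.2 RPKM in Ctrl, 71.8 to 73.2 in ONC and 75.2 to 78.9 in TPEN. Amacrine markers summed to 31.6 to 33.6, 27.0 to 28.2 and 31.5 to 33.6 RPKM. Those of endothelial cells and pericytes summed to 11.9 to 12.6, 13.99 to 14.04 and 15.04 to 15.95 RPKM. Marker sums of several retinal cell types thus differed between the groups, in ONC/Ctrl as well as in TPEN/ONC. The part of these cell types in the member levels was not tested. The libraries therefore held transcripts of many retinal cell types, and the cell in which a member was expressed cannot be read from them.

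Set against the myeloid markers of the same library, the members differed. Tlr2 made 0 to 0.936% of the summed myeloid level in Ctrl, 0.488 to 0.615% in ONC and 0.586 to 0.681% in TPEN, ranges that overlapped. Tlr13 made 0 to 0.690%, 0.356 to 0.494% and 0 to 0.532%, which also overlapped. Tlr2 and Tlr13 lay below the filter, and their shares were not tested. Cd14 made 0 to 0.548% in Ctrl, 1.62 to 1.66% in ONC and 0.600 to 1.23% in TPEN. The ONC libraries lay above all others, whereas the Ctrl library with 0 reads allows up to 0.897%, within the TPEN range. With 0.1 RPKM added to the member and the sum, its log2 ratio was 0.46 higher in ONC than in Ctrl and 0.57 lower in TPEN than in ONC. The exact permutation test over the 3 groups did not pass (p = 0.157, adjusted over the 2 members tested 0.157). The added 0.1 RPKM exceeds the Ctrl mean of Cd14 (0.0373 RPKM) and shrinks the ratio difference to Ctrl. Cd14 was also tested only through its ONC level, so the test cannot decide whether its share differed.

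Myd88 made 11.9 to 15.3% of the summed myeloid level in Ctrl, 2.85 to 3.49% in ONC and 5.81 to 6.54% in TPEN. Its log2 ratio was -2.81 ± 0.17, -4.91 ± 0.15 and -3.98 ± 0.084 (SD, n = 3), and the 3 groups differed (two-sided exact permutation p = 0.00357 over 280 divisions of the libraries, the smallest possible, adjusted over the 2 members 0.00714). No library of one group overlapped another, and the ratio was highest in uninjured cells and lowest in ONC. The summed markers alone did not overlap between groups (10.3 to 10.6 RPKM in Ctrl, 79.9 to 82.3 in ONC and 40.3 to 42.6 in TPEN). A gene that changed much less than this sum would also give a small p, so the test does not single out Myd88.

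**Figure D3:**
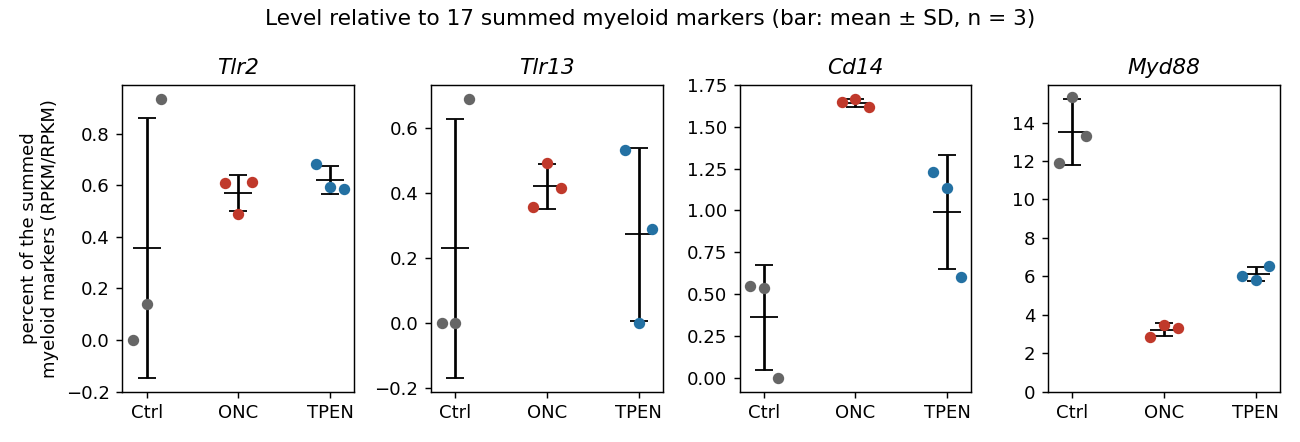
Each member's RPKM as a percent of the summed RPKM of 17 myeloid markers in the same library (y axis, a separate scale per gene), with the mean and SD (bars, n = 3). Myd88 is highest in Ctrl (11.9 to 15.3%), Cd14 is highest in ONC (1.62 to 1.66%), and Tlr2 and Tlr13 overlap between groups.

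The rest of the pathway was described from a list of 95 genes given by role, of which 66 were listed and 55 tested. Of these 55, 25 passed the adjusted p of 0.05 as higher and 2 as lower in ONC/Ctrl, against 11.7% of all genes tested that passed as higher. With the fold of 1.5, 17 (30.9%) were called higher against 4.58% of all genes, and the median log2 fold change was 0.18 against 0.017 over all genes. In TPEN/ONC 12 passed as lower and 1 as higher, where 4.14% and 3.24% of all genes did. With the fold of 1.5, 9 (16.4%) were called lower against 1.21% of all genes, with a median of -0.13 against -0.011. In TPEN/Ctrl 16 passed as higher and 2 as lower, where 8.36% and 5.01% of all genes did, and 12 (21.8%) were called higher against 3.45%. Of the 55, Lilrb4a, Lgals3, Tnf, Il1b and Cxcl2 were tested only through their ONC level (under 0.5 RPKM on average in both other groups, or above 1 RPM in fewer than 2 of their libraries). Without these 5, a choice made after seeing the data, 20 of 50 passed as higher in ONC/Ctrl and 8 as lower in TPEN/ONC, where 11.4% and 3.91% of all genes left did. The 50 still hold Irf8 and Inpp5d, whose mean over the Ctrl and TPEN libraries together is under 0.5 RPKM. ONC/Ctrl and TPEN/ONC share the ONC libraries, so their values are given side by side and not compared.

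None of the other receptors on the list (Tlr3, Tlr5, Tlr8, Tlr11 and Tlr12) was listed in the table. Of the other adaptors with the same TIR domain, Tirap, which bridges TLR2 and TLR4 to MYD88, rose in ONC/Ctrl by 0.84 (limma adjusted p = 6.6e-04) and was higher in TPEN/Ctrl by 0.66 (limma adjusted p = 0.0040). Its TPEN/ONC value was -0.18 (limma adjusted p = 0.414). Its levels were 1.53 ± 0.213 RPKM in Ctrl, 2.80 ± 0.215 in ONC and 2.46 ± 0.103 in TPEN (SD, n = 3), close to those of Myd88. Ticam1, the adaptor of TLR3 and TLR4 towards interferon, was low at 0.767 ± 0.149, 0.815 ± 0.139 and 0.565 ± 0.176 RPKM and passed in no comparison. Sarm1, a TIR protein better known for axon degeneration, was the highest of the adaptors at 18.9 ± 1.48, 16.97 ± 0.854 and 17.4 ± 0.101 RPKM and passed in no comparison (ONC/Ctrl -0.15, limma adjusted p = 0.109). Ticam2 was not listed.

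Among 6 tested chaperones, trafficking proteins and co-receptors, 3 rose in ONC/Ctrl, beside 11.7% of all genes. Unc93b1, which escorts the nucleic acid receptors to endosomes, rose from 0.310 ± 0.198 to 2.76 ± 0.225 RPKM (SD, n = 3), a log2 fold change of 2.91 (limma adjusted p = 1.5e-04). It stood at 1.62 ± 0.391 RPKM in TPEN, and TPEN/ONC was -0.75 (limma adjusted p = 0.192). Lgmn, a lysosomal protease that processes these receptors, rose by 0.22, and Ap3b1, a subunit of a sorting adaptor, by 0.15, both under the fold of 1.5. Ap3b1 no longer passed without Ctrl 1, Ctrl 2, ONC 2 or ONC 3 in turn (limma adjusted p up to 0.107, values of 0.13 to 0.18 over all left-out libraries).

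Among 14 tested kinases, ubiquitin ligases and scaffolds, 3 rose in ONC/Ctrl and 1 fell in TPEN/ONC, beside 11.7% and 4.14% of all genes. Pik3ap1, an adaptor that links TLR signals to the PI3-kinase, went from 0.202 ± 0.0802 RPKM in Ctrl to 3.37 ± 0.0812 in ONC and 1.14 ± 0.286 in TPEN (SD, n = 3). It rose by 3.56 in ONC/Ctrl (limma adjusted p = 3.6e-06) and fell in TPEN/ONC by 1.51 (limma adjusted p = 0.0035). Ripk1, a scaffold kinase downstream of the adaptors, rose by 0.83 in ONC/Ctrl and 0.70 in TPEN/Ctrl, and had -0.14 in TPEN/ONC (limma adjusted p = 0.427). Irak4, the kinase recruited by MYD88 itself, rose by 0.46 (limma adjusted p = 0.044), under the fold of 1.5. It did not pass in 7 of 9 fits that left out 1 library, all but those without TPEN 1 or TPEN 3 (limma adjusted p up to 0.139, values of 0.38 to 0.53). Of 4 tested IKK and TBK1 kinases, Chuk passed, falling in ONC/Ctrl by 0.27 (limma adjusted p = 0.0062), where 6.97% of all genes passed as lower.

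Of 8 tested NF-kB and IRF factors, 4 rose in ONC/Ctrl and 1 fell in TPEN/ONC, beside 11.7% and 4.14% of all genes. Irf8, a factor of the myeloid lineage, had 2.67 in ONC/Ctrl and -0.77 in TPEN/ONC (limma adjusted p = 0.067 for the latter). Its mean reached 0.5 RPKM only with the ONC libraries (0.140 RPKM in Ctrl, 1.40 in ONC and 0.799 in TPEN), so a higher ONC level was favoured. Nfkb2, an NF-kB subunit, rose by 1.60 with -0.43 in TPEN/ONC (limma adjusted p = 0.151). Rela, the main activating subunit, rose by 0.52 (limma adjusted p = 0.0013). Irf7, which drives interferon genes, rose by 0.70 and fell in TPEN/ONC by 0.41 (limma adjusted p = 0.021), under the fold of 1.5. The fall did not pass without ONC 1, ONC 2, TPEN 1 or TPEN 3 in turn (limma adjusted p up to 0.082, values of -0.45 to -0.36).

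Of 11 tested inhibitors of the pathway, 6 rose and 1 fell in ONC/Ctrl, and 4 fell and 1 rose in TPEN/ONC, beside 11.7% of all genes that passed as higher in the former and 4.14% as lower in the latter. Lilrb4a was tested only through its ONC level. Without it 5 of 10 rose and 1 fell in ONC/Ctrl, and 3 fell and 1 rose in TPEN/ONC. Tnfaip3, an enzyme that edits ubiquitin chains to end NF-kB signalling, went the other way from those named next and is named after its values were seen. It stood at 67.3 ± 1.39 RPKM in Ctrl, 49.7 ± 1.03 in ONC and 56.3 ± 1.64 in TPEN (SD, n = 3), falling in ONC/Ctrl by 0.44 and rising by 0.18 in TPEN/ONC (limma adjusted p = 1.2e-05 and 0.010), both under the fold of 1.5. Lilrb4a, an inhibitory receptor of myeloid cells, had 0.135 ± 0.0567 RPKM in Ctrl, 2.95 ± 0.481 in ONC and 0.480 ± 0.151 in TPEN (SD, n = 3), log2 fold changes of 3.71 in ONC/Ctrl and -2.41 in TPEN/ONC (limma adjusted p = 4.1e-04 for the latter). Ptpn6, a phosphatase that restrains immune receptors, rose by 2.62 and fell in TPEN/ONC by 1.13 (limma adjusted p = 0.0019). Inpp5d, a lipid phosphatase, had 1.43 in ONC/Ctrl and -0.68 in TPEN/ONC (limma adjusted p = 0.062 for the latter). Its mean reached 0.5 RPKM only with the ONC libraries (0.258 RPKM in Ctrl, 0.857 in ONC and 0.502 in TPEN). Tnip1, which limits NF-kB with ubiquitin-binding partners, rose by 0.49 and fell in TPEN/ONC by 0.33 (limma adjusted p = 0.024), under the fold of 1.5. The fall did not pass without ONC 1, ONC 2, TPEN 1 or TPEN 3 in turn (limma adjusted p up to 0.091, values of -0.39 to -0.27).

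Among 4 tested protein ligands, 3 rose in ONC/Ctrl and 2 fell in TPEN/ONC, beside 11.7% and 4.14% of all genes. Lgals3 was tested only through its ONC level, and without it 2 of 3 rose and 1 fell. Lgals3, a lectin that can engage these receptors, had 2.40 in ONC/Ctrl and -1.75 in TPEN/ONC (limma adjusted p = 0.0064 for the latter, too small by the selection on ONC). Apoe, a lipid carrier made by Müller glia as well as by myeloid cells, rose by 0.64 from a high level, 172 ± 2.85 RPKM in Ctrl, and fell by 0.59 in TPEN/ONC. Hmgb1, a nuclear protein released on cell death, rose by 0.25, with 0.022 in TPEN/ONC (limma adjusted p = 0.775).

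Cytokine and chemokine products had the highest median log2 fold change of the roles in ONC/Ctrl (3.11) and the lowest in TPEN/ONC (-1.33). Of 14 named, 6 were listed and 5 tested. Cxcl2, Il1b and Tnf were tested only through their ONC level, so a higher ONC value had to be there, and the medians and counts of this role are given as a description. The same selection makes the TPEN/ONC p-values of these 3 genes too small. Of the 5, all passed as higher in ONC/Ctrl and 4 as lower in TPEN/ONC, beside 11.7% and 4.14% of all genes. Cxcl2, a neutrophil chemokine, had 0.0423 ± 0.0419 RPKM in Ctrl, 3.89 ± 0.272 in ONC and 0.124 ± 0.0247 in TPEN (SD, n = 3), and the ONC and TPEN libraries were far apart (TPEN/ONC -4.16, limma adjusted p = 8.7e-06). Il1b, a fever cytokine, had 3.20 in ONC/Ctrl and -2.54 in TPEN/ONC (limma adjusted p = 6.3e-05 for the latter). Ccl3, a macrophage chemokine, rose by 3.11 and fell in TPEN/ONC by 1.20 (limma adjusted p = 0.016), a call lost without ONC 1, ONC 2 or TPEN 1 in turn (limma adjusted p up to 0.066, values of -1.29 to -1.07 over all left-out libraries). Tnf, a cytokine of the same response, rose by 2.47 and had -1.33 in TPEN/ONC, which did not pass (limma adjusted p = 0.138).

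Exons of Tirap, Ripk1, Irak4, Nfkb2, Irf7 and Hmgb1 overlap exons of other listed genes, so their reads are uncertain in the way given for Myd88. Among pathway genes named above, Tirap, Ripk1 and Rela, like Myd88, passed as higher in both crushed groups. Their TPEN/ONC values lay between -0.18 and -0.034 and did not pass. Unc93b1, Nfkb2, Irf8 and Inpp5d also passed as higher in both, with TPEN/ONC values of -0.75, -0.43, -0.77 and -0.68 that did not pass. Ap3b1 and Hmgb1 did too, with 0.0075 and 0.022. Pik3ap1, Ptpn6 and Ccl3 passed as higher in both crushed groups and as lower in TPEN/ONC, as did Cd14 and Lilrb4a, which were tested only through their ONC level.

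**Figure D4:**
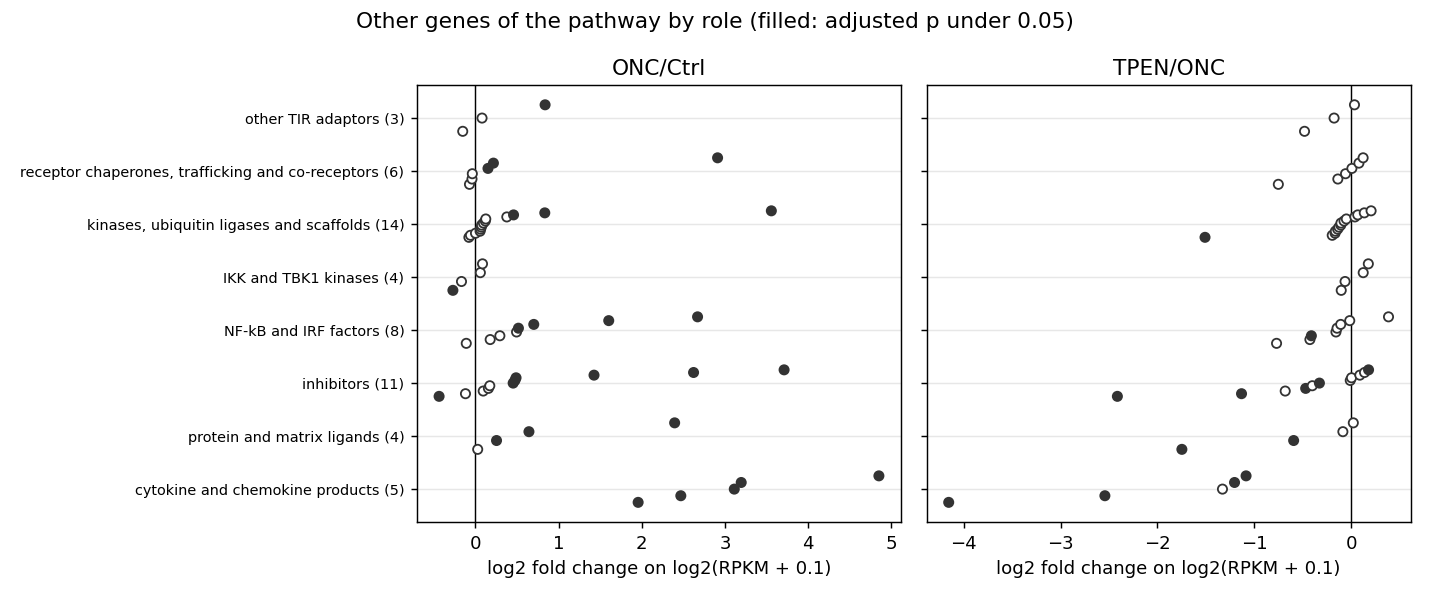
Log2 fold change on the log2(RPKM + 0.1) scale (x axis) of the 55 tested pathway genes by role (rows, with the number tested) in ONC/Ctrl and TPEN/ONC, filled points passing an adjusted p of 0.05. Cytokine and chemokine products, of which 3 of 5 were tested only through their ONC level, have medians of 3.11 and -1.33, and the IKK and TBK1 kinases of -0.053 and 0.031.

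By the median standardized log2 level of Cd14 and Myd88 over the 9 libraries, genes with the most similar profiles included Impg2 (Pearson r = 0.994), Plcb4 (r = 0.990), Csf1r (r = 0.990) and Casp8 (r = 0.989). These are correlations over libraries that fall into 3 groups and are given as a description. Csf1r, the receptor for the growth factor of macrophages and microglia, had 0.810 RPKM in Ctrl, 5.85 in ONC and 3.25 in TPEN on average. Casp8, the initiator caspase of death receptors, had 0.134, 0.923 and 0.669 RPKM. Impg2, a protein of the photoreceptor matrix, had 47.6, 72.5 and 64.8 RPKM, and Plcb4, a phospholipase of retinal neurons, 15.8, 22.2 and 20.7 RPKM.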

How the data were processed

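RNA of sorted retinal cells was made into libraries with a stranded mRNA kit that carries molecular identifiers. Per the labels and the study's methods, the authors trimmed reads with Trimmomatic 0.36, mapped them with STAR to GRCm38/mm10 and deposited 1 table of RPKM values per gene and library. The counting tool, the annotation, the use of strand and the collapse of identifiers are not given in the sources used here. The 9 columns of the authors' own comparisons (fold changes and test values) were not used, and 0 columns of per-sample values were left unused.

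Each RPKM value times its gene length was a whole multiple of 1 step per library (100% of values within a tolerance of 0.001), which gave reads and totals of 19946993 to 23109754. Log2(RPKM + 0.1) was fitted with limma 3.58.1 (R 4.3.3) with a variance trend, 1 coefficient per group over 9 libraries, on the 13566 genes whose mean reached 0.5 RPKM, with Benjamini-Hochberg adjustment over all of them. A call needed an adjusted p under 0.05 and a fold of at least 1.5. Tlr2 and Tlr13, below the filter, were taken from the same fit on all 15228 genes. The fit was tested on simulated data. Single values were compared by exact two-sided permutation tests. Read ratios have exact 95% intervals conditional on the sum, and 0 reads allow up to 3 reads.

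Alternatives were another pseudocount, other filters, quantile normalization, the 6 libraries of 2 groups, a replicate block, a test against a fold of 1.5, a fold of 2, voom on whole reads and leaving out each library. Pathway genes are named where they are other receptors or adaptors, or among the up to 4 per role with the largest ONC/Ctrl change that passed in ONC/Ctrl or TPEN/ONC. The members and lists were chosen with earlier results of these data known. The 5 genes with the profile most like the tested members were also to be named, and some results on single genes are not reported here.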

Additional observations from a re-analysis of the deposited data

How the results depend on the processing

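Of the 4 listed members, 2 were tested with the filter and called higher in ONC/Ctrl, beside 4.58% of all genes. Tlr2, Tlr13 and Cd14 were listed through their ONC level, so the member counts are a description only. The ONC/Ctrl count was 4 with no filter, beside 6.19% of all genes. It was 1 with a pseudocount of 1 RPKM and with a mean of at least 1 RPKM (which leaves only Myd88). A test against a fold of 1.5 and a fold of at least 2 also gave 1. In TPEN/ONC 1 member, Cd14, was called lower, beside 1.21% of all genes. This count became 0 with a mean of at least 1 RPKM, where Cd14 is not tested, and with the test against 1.5. In TPEN/Ctrl 2 members were called higher, beside 3.45% of all genes. This count became 0 with a pseudocount of 1, which shrinks the folds of low genes. It became 1 with a mean of at least 1 RPKM, quantile normalization, the test against 1.5 or a fold of at least 2. Leaving out any 1 library left these counts at 2, 1 and 2.

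Of the pathway genes, 17 called higher in ONC/Ctrl became 11 with a mean of at least 1 RPKM, where fewer genes are tested. The 9 called lower in TPEN/ONC became 14 with no filter and 3 in the test against 1.5, and were 6 to 12 when 1 library was left out. The 12 called higher in TPEN/Ctrl became 5 with a pseudocount of 1, 5 in the test against 1.5 and 7 with a fold of at least 2.

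The Myd88 value in TPEN/ONC changed sign when 1 library was left out (range -0.118 to 0.0199, being 0.0167 without ONC 2 and 0.0199 without TPEN 2) and passed in none of 17 alternatives. The Cd14 ratio to the myeloid markers in TPEN/Ctrl, -0.103, ranged from -0.329 to 0.155 in the same way (0.0118 without Ctrl 1, 0.008 without Ctrl 2, 0.155 without TPEN 3). TPEN/ONC passed as lower in 15 of 16 alternatives for Cd14, 2 of 15 for Tlr2 (also with a pseudocount of 1, limma adjusted p = 0.035) and 3 of 15 for Tlr13 (also with a pseudocount of 1, 0.048, and with voom on whole reads, 0.012). The causes were not tested.

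Libraries with the same replicate number did not deviate together (correlations -0.062 to 0.027 over 9 pairs), so the numbers do not pair them. With the replicate block Cd14 in TPEN/ONC was -1.53 (limma adjusted p = 0.0098), and no member call changed. Depth limits the uninjured levels of Tlr2, Tlr13 and Cd14, which rest on 7, 6 and 4 reads.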
